A study of Mus musculus with 14 samples.

Results

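The genes described here are 44 cell cycle and DNA replication genes, chosen by name from the 24394 named genes of an RNA sequencing table of mouse microglia. The rule used gene symbols alone, the members were chosen with earlier results of these data known, and all 44 were found. Microglia are the resident macrophages of the brain. They came from C57BL/6 mice aged 18 months whose cerebrospinal fluid had received a control IgG or a blocking antibody against CD22, an inhibitory receptor that binds sialic acid, from an implanted pump for 1 month. Both groups therefore shared the age, the strain, the surgery and the infusion of an antibody, and no group without a pump was analysed here. Each group held 7 libraries, made from about 20000 living cells per sample that were sorted for CD11b and low CD45 from the hemisphere opposite the cannula. Whether the 7 libraries of a group stand for 7 animals is not said in the labels, and p-values therefore reflect only how far these samples scatter, which may be technical.

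A cell that divides first loads the MCM helicase onto its replication origins, a step called licensing, for which Cdc6 and Cdt1 are the loading factors. It then makes deoxynucleotides and copies its DNA, and later enters mitosis under cyclin A, cyclin B and Cdk1. Spindle motors and chromosome proteins separate the copies, and the anaphase-promoting complex with its activator Cdc20 ends mitosis. In the adult brain microglia renew slowly by division, so at any time few of them are in cycle. Mitotic genes are usually shut off in resting cells by a repressor that binds cell cycle homology regions (CHR elements), while many replication genes are under E2F factors. MCM proteins are abundant and can be present outside S phase.

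The members were treated as separate classes by role. The class called licensing here held 9 genes of licensing and the helicase (Mcm2 to Mcm7, Cdc6, Cdt1, Gins2). Gins2 is a helicase cofactor and not a loading factor. DNA synthesis held 5 genes (Pcna, Rrm1, Rrm2, Tyms, Tk1). The G1 class held 6 genes (Ccnd1, Ccnd2, Ccnd3, Ccne1, Ccne2, E2f1), and 2 growth-associated genes (Stmn1, Hmgb2) stood apart because resting cells use them too. The 22 mitotic genes were split into 4 genes of the mitotic cyclins and their kinase, 8 of mitotic control and 10 of the spindle and chromosomes. Values are normalized counts, which are reads per gene divided by 1 size factor per library. A gene was tested where its mean over all 14 libraries reached 10 normalized counts, which 11646 genes did, among them 42 of the members. Mki67 and Cenpe, with means of 8.63 and 9.19, were not tested.

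No member differed between the antibodies at an adjusted p under 0.05. In the limma fit to log2(normalized count + 1), with Benjamini-Hochberg adjustment over all genes tested, 0 of 42 members passed, where 0.00859% of all genes did (1 gene). At an unadjusted p under 0.05, 5 members had lower values with anti-CD22 (11.9% of those tested, where 5.95% of all genes were lower at that level) and 0 had higher values (6.8% of all genes). Those 5 were Mcm6, Cdc6, Rrm2, Bub1 and Stmn1. The lowest adjusted p of a member was 0.238, for Mcm6. On the 13 libraries with recovered whole reads, the edgeR quasi-likelihood test passed 0 members (0% of all genes). DESeq2 gave an adjusted p to 13 members and passed 0 of them, where it passed 0.524% of the 6679 genes with one. At an unadjusted p under 0.05 edgeR gave 2 members (8.82% of all genes) and DESeq2 gave 2 (10% of all genes), Mcm6 and Mcm7 in both. No member had group ranges that did not overlap, which 0.258% of all genes had.

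The fitted differences nevertheless lay mostly on one side. Of the 42 members, 33 (78.6%) had a log2 fold change below 0, where 49.8% of all genes did, and 9 had one above 0. The members' median log2 fold change was -0.26 (-0.14 in DESeq2 on 13 libraries) and that of all genes tested 0.00. The members share libraries and often move together within a library, so this count is not a count of independent results. They were also chosen with earlier results of these data known. Of 98 other tested genes of the same pathways, 57 (58.2%) were below 0 and 41 above, with a median of -0.05. The plot of fitted differences shows both how the mitotic genes extend further below 0 and how wide their intervals are.

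**Figure D1:**
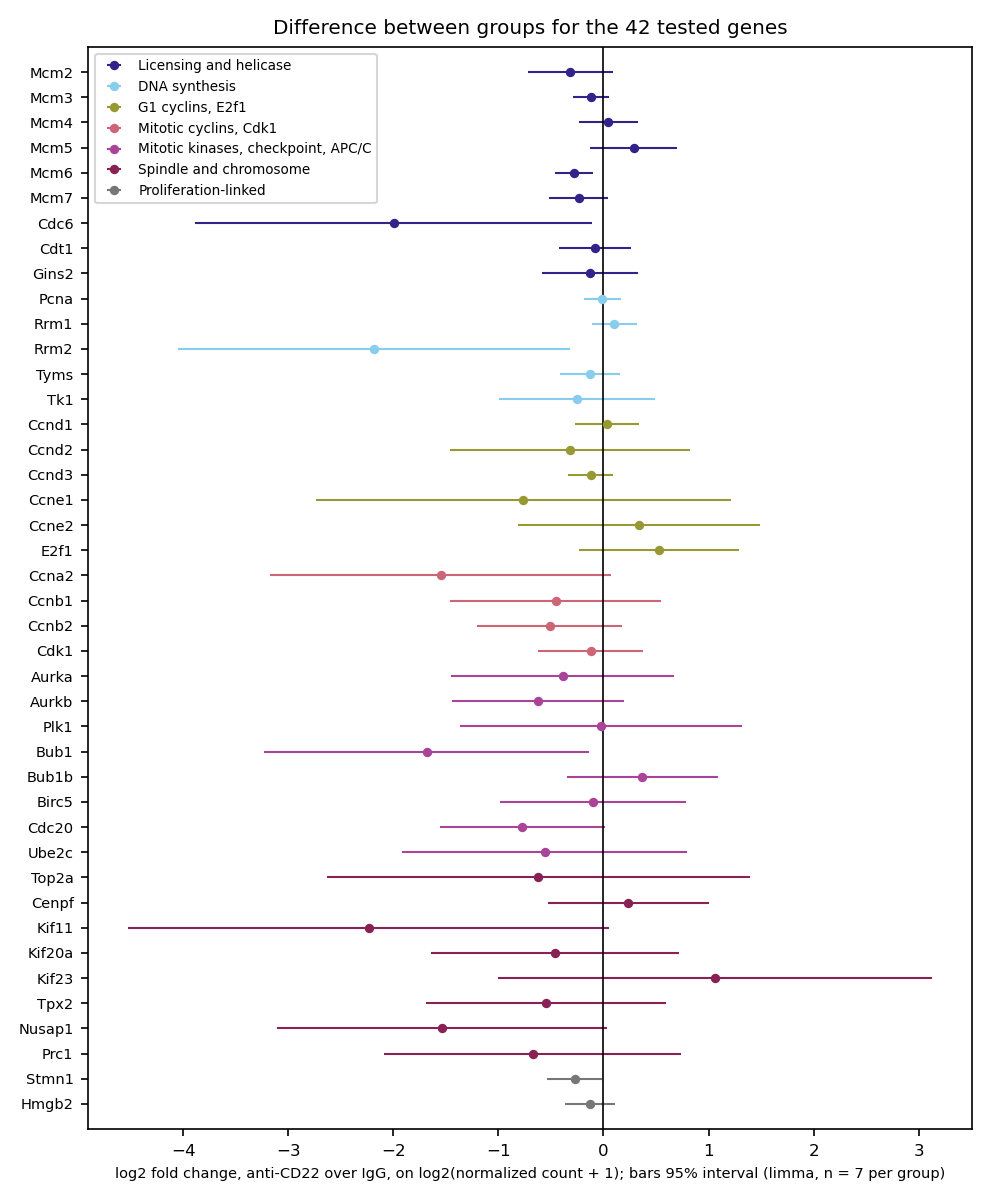
Fitted log2 fold change of anti-CD22 over IgG for the 42 tested members, on the log2(normalized count + 1) scale, grouped by class, with points for the limma estimate and bars for its 95% interval. Helicase, Pcna, Rrm1 and Tyms points sit close to 0, Cdc6 and Rrm2 lie far below it, Tk1 and Gins2 have wider intervals (-0.996 to 0.49 and -0.59 to 0.33), and of the mitotic intervals that of Bub1 lies wholly below 0.

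CHR elements and CCAAT boxes stood in larger shares of the mitotic members' promoters than of all promoters, but neither stood in every mitotic promoter. The CCAAT share was also larger in the licensing and synthesis promoters, and the E2F letters stood in only 1 mitotic promoter. RefSeq promoters (GRCm38.p6) matched 34 of the 44 members with 37 promoters, among 32851 promoters in all, and the 250 bases before each start were searched on both strands. CHR elements were taken as TTTGAA or TTCGAA, the NF-Y box as CCAAT, and E2F sites as TTTCCCGC, TTTGGCGC, TTTGCCGC or TTTCGCGC. A CHR element stood in 9 of 19 mitotic promoters (47.4%), in 2 of 13 licensing and synthesis promoters (15.4%) and in 17.1% of all promoters. A CCAAT box stood in 17 of the 19 mitotic promoters (89.5%), in 9 of the 13 licensing and synthesis promoters (69.2%) and in 33.8% of all promoters. Both motifs together stood in 47.4% of the mitotic promoters and in 6.0% of all promoters. The E2F letters stood in 4 of the 13 licensing and synthesis promoters (30.8%), in 1 of the 19 mitotic promoters (5.3%) and in 1.9% of all promoters. Some members have more than 1 promoter in the table, and a match says only that these letters are present.

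The 120 bases just before the start of 7 members are shown because they show the motifs in place, chosen among members that carry at least 1 of them. Each is written 5′ to 3′ on the gene's own strand, with the motif letters in capitals. A CCAAT box on the other strand reads ATTGG, a CHR element on the other strand reads TTCAAA, and an E2F site may run into its neighbour where both strands match. Mcm3 lies at chr1:20820313-20820432 on the minus strand, Mcm6 at chr1:128359706-128359825 on the minus strand and Rrm2 at chr12:24708134-24708253 on the plus strand. Cdk1 lies at chr10:69352913-69353032, Top2a at chr11:99024190-99024309 and Cdc20 at chr4:118437344-118437463, all on the minus strand, and Kif11 at chr19:37376262-37376381 on the plus strand.
Mcm3: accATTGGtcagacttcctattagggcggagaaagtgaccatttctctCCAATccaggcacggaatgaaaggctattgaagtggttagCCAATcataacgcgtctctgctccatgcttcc
Mcm6: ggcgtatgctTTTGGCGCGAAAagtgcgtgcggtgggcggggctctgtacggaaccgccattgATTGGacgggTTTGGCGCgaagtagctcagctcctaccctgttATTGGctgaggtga
Rrm2: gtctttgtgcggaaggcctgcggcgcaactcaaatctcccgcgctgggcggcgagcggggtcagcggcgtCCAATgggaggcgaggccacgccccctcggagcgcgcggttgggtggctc
Cdk1: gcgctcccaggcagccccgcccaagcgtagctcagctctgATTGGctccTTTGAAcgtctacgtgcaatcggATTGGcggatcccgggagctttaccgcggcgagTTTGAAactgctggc
Top2a: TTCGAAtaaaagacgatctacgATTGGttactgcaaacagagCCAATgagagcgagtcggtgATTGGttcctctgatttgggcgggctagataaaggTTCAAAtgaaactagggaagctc
Cdc20: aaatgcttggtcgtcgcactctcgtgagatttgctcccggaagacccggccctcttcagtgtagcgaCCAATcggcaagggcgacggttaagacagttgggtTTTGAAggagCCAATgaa
Kif11: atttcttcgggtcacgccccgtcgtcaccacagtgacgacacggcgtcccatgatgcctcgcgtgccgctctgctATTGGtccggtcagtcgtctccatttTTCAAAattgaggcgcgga
Mcm3 and Rrm2 show CCAAT boxes with neither of the other motifs, at 117, 72 and 32 bases before the start in Mcm3 and at 50 in Rrm2. Mcm6 carries E2F letters at 110, 106 and 47 bases before the start, the first 2 overlapping each other, and CCAAT boxes at 57 and 14. Cdk1 has CHR elements at 71 and 15 bases and CCAAT boxes at 80 and 48. Top2a has CHR elements at 120 and 23 bases and CCAAT boxes at 98, 78 and 58. Cdc20 has a CHR element at 18 bases with CCAAT boxes at 53 and 8, and Kif11 has a CHR element at 19 with a CCAAT box at 45. The 4 mitotic genes shown are ones with a CHR element, which 10 of the 19 mitotic promoters, among them those of Bub1, Nusap1 and Ccnb1, did not hold.

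Most licensing genes were well expressed and the mitotic genes were scarce. Per kilobase of the longest transcript, the mean level of the licensing genes ran from 4.44 normalized counts (Cdc6) to 809 (Mcm3), with a median of 161, beside a median of 179 over all genes tested. The synthesis genes ran from 29.9 (Tk1) to 746 (Pcna), with a median of 89.7. The mitotic genes ran from 0.858 (Mki67) to 64.2 (Cdc20), with a median of 12.9, and all 22 lay below the median of all genes. Of the licensing genes, Gins2, at 23.6, lay within this mitotic range, as did Cdc6. Stmn1, a microtubule-destabilizing protein, and Hmgb2, a chromatin protein, stood at 843 and 430.2 per kilobase. The heat map of levels shows the same contrast in each library.

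Values of 0 were mostly mitotic. Of the 308 mitotic values (22 genes in 14 libraries), 22 were 0, spread over 8 genes, with 10 in IgG and 12 in anti-CD22 libraries. The untested Mki67 and Cenpe were among those 8 genes. Of the 126 licensing values 3 were 0, all of Cdc6, and of the 70 synthesis values 1 was 0, of Rrm2 in anti-CD22 4. Of the 84 values of the G1 class 3 were 0, all of Ccne1. A count of 0 allows up to 3 reads (counting error only), which are worth 2.20 to 4.14 normalized counts depending on the library.

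**Figure D2:**
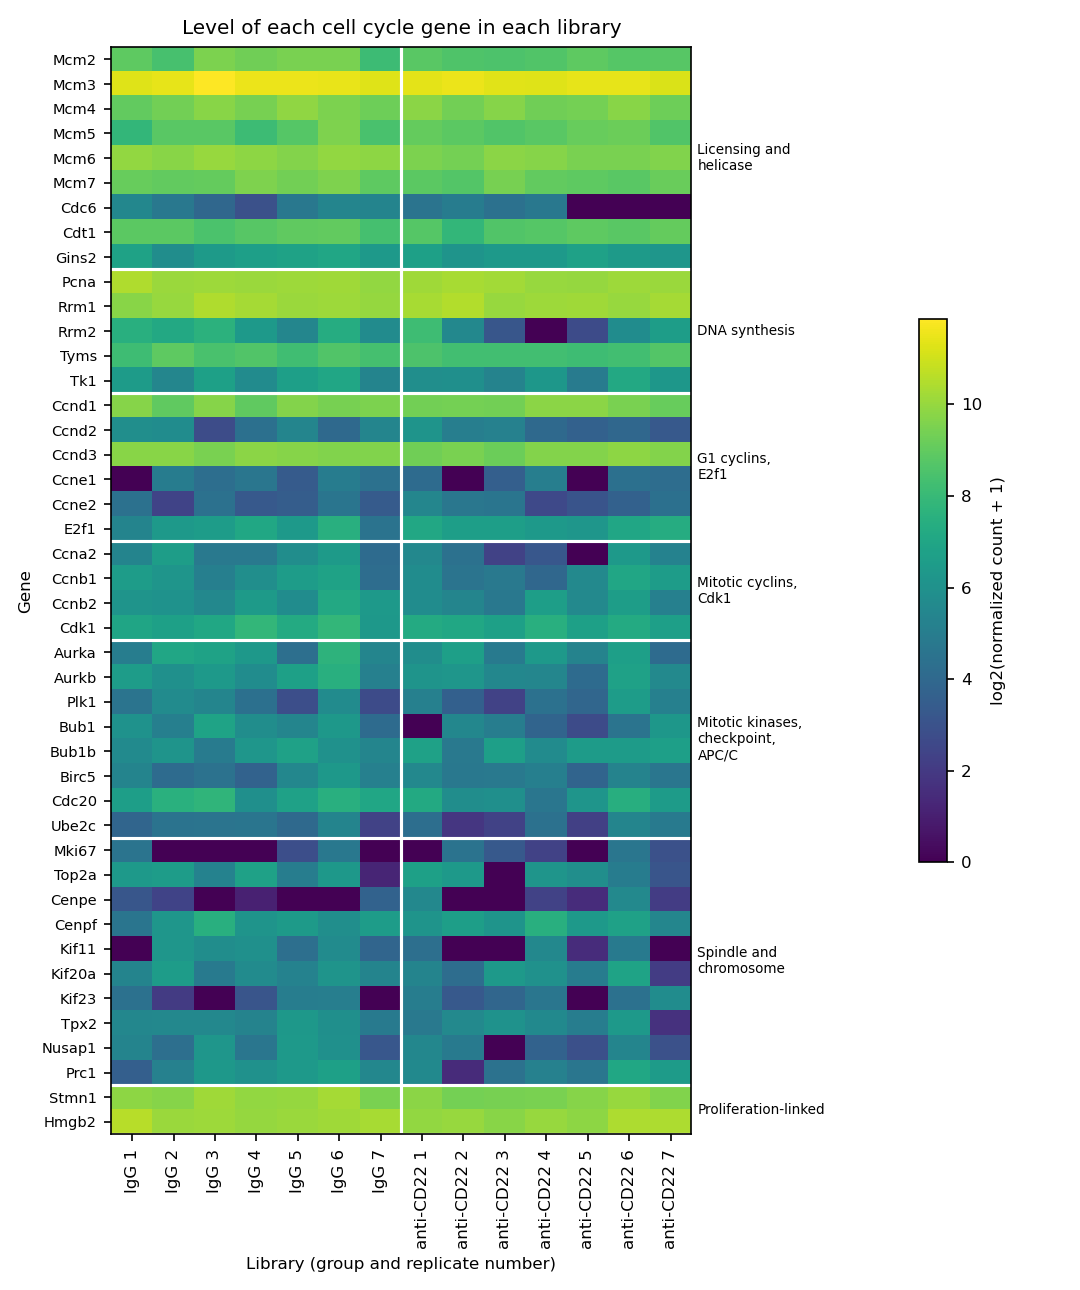
Heat map of log2(normalized count + 1) for the 44 members (rows, grouped by class) in the 7 IgG and 7 anti-CD22 libraries (columns). Licensing, synthesis and growth-associated genes are mostly high in every library, and mitotic genes are low and uneven, with 22 values at 0.

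Libraries held 20221836 to 38101421 whole reads in the 13 with recovered reads, and normalized totals, which size factors make even, ran from 27357939 to 29197481 over all 14. The 10 microglial markers summed to between 1769210 and 2099776 normalized counts with IgG and between 1860009 and 2022130 with anti-CD22, and none of the 10 was at 0 throughout. Cd3e and Gzma of T and NK cells, Ms4a1 and Pax5 of B cells, Pdgfra of oligodendrocyte precursors, and Dcx and Dlx2 of neuroblasts were at 0 in every library. The whole B cell list summed to 1208 to 1639.6 with IgG and 1133 to 1463 with anti-CD22, the oligodendrocyte precursor list to 0 to 47.3 and 0 to 29.3, the neuroblast list to 0 to 7.34 and 0 to 17.7, and the T and NK cell list to 0 to 7.80 and 0 to 5.87. Astrocyte markers summed to 5919.5 to 8566 and 6595 to 8426, oligodendrocyte markers to 1614 to 2185 and 1420.5 to 2049, and endothelial markers to 635 to 1201 and 858 to 1226. Monocyte markers summed to 137 to 9181 and 88.2 to 2313, neuron markers to 25.6 to 94.0 and 21.3 to 92.9, and erythroid markers to 0 to 143 and 4.04 to 127. Neutrophil markers (9 measured) summed to 3.34 to 55974 with IgG and 0 to 10812 with anti-CD22, and border macrophage markers (6 measured) to 90.7 to 1512 and 243 to 2308. Mean correlations of library level with transcript length were -0.11 with IgG and 0.12 with anti-CD22, and were steepest in anti-CD22 libraries 1, 2 and 3, at 0.31, 0.29 and 0.33. In sorted bulk samples a smaller share of cells in cycle and less RNA per cell cannot be told apart.

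Of the licensing genes, 7 had lower and 2 had higher fitted values with anti-CD22, and the median log2 fold change was -0.13, with a median SE of 0.16. Mcm6, a subunit of the replicative helicase, stood lowest, median and highest at 814, 916 and 1042 normalized counts with IgG and at 673, 747 and 899 with anti-CD22. All 7 anti-CD22 libraries were below the median of IgG, although the groups overlapped. Its means were 933 ± 81.0 and 769 ± 77.8 normalized counts (SD, n = 7 each), a log2 fold change of -0.28 (SE 0.09), with an adjusted p of 0.238 by limma, 0.403 by edgeR and 0.0586 by DESeq2. Mcm6 was the only licensing gene with a 95% interval of the log2 fold change below 0 (-0.47 to -0.09) besides Cdc6.

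Mcm2, another helicase subunit, stood at 280.3, 632 and 749 normalized counts with IgG and at 373, 433 and 486 with anti-CD22 (lowest, median and highest). Its 7 anti-CD22 libraries were close together and below the IgG median, within the much wider range of the IgG libraries. The means were 561 ± 193 and 425 ± 38.0 normalized counts (SD, n = 7 each) and the log2 fold change was -0.31 (SE 0.19, adjusted p = 0.50 by limma). Mcm7 stood at 486, 552 and 761 with IgG and at 414, 485 and 698 with anti-CD22, with a log2 fold change of -0.23 (limma SE 0.13, adjusted p = 0.468). The Mcm7 groups overlapped over most of their ranges, with 5 of 7 anti-CD22 values under the median of IgG.

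Cdc6, which loads the helicase, was the scarcest member of the licensing class, at 6.69, 26.3 and 43.5 normalized counts with IgG and at 0, 20.2 and 30.9 with anti-CD22. Anti-CD22 libraries 5, 6 and 7 were at 0, and the other anti-CD22 libraries lay among the IgG values. The log2 fold change was -1.997 (SE 0.90, adjusted p = 0.372 by limma), and -1.10 in DESeq2 without anti-CD22 3. Among the other licensing genes, Mcm3 had a log2 fold change of -0.12, Gins2, a helicase cofactor, -0.13, Cdt1 -0.08, Mcm4 0.05 and Mcm5 0.29. Helicase subunits, which work as 1 complex, therefore had fitted values on both sides of 0.

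The 5 synthesis genes had a median log2 fold change of -0.12, with 4 below 0 and 1 above. Pcna, the sliding clamp of the replicative polymerases, stood at 980.2, 1120.4 and 1386 normalized counts with IgG and at 1019, 1109.6 and 1276 with anti-CD22. The groups covered nearly the same range, with means of 1137 ± 124 and 1127 ± 86.9 (SD, n = 7 each) and a log2 fold change of -0.01 (95% interval -0.18 to 0.16). Rrm1, the large subunit of ribonucleotide reductase, was likewise even, at 1115 ± 178 and 1190.5 ± 133 (SD, n = 7 each), with a log2 fold change of 0.10 (limma SE 0.10, adjusted p = 0.698).

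Rrm2, the small subunit that is made mainly in S phase, was uneven. It stood at 42, 144 and 198 normalized counts with IgG and at 0, 45.1 and 288 with anti-CD22. The highest value of all, 288, was in anti-CD22 1 and the only 0 in anti-CD22 4, and 6 of 7 anti-CD22 libraries were below the median of IgG. The mean was 1.73 times higher with IgG, the log2 fold change -2.18 (SE 0.89, adjusted p = 0.336 by limma) and that of DESeq2 -0.60. Without anti-CD22 4 the limma value of Rrm2 was -1.42. Rrm1 and Rrm2 form 1 enzyme, and their values differed in evenness across these libraries. Tyms, which makes thymidylate, had a log2 fold change of -0.12 (SE 0.14), and Tk1, the thymidine kinase of the salvage route, one of -0.25 (SE 0.36), with adjusted p of 0.727 and 0.793 by limma. Tk1 ran from -0.45 to -0.08 on leaving out 1 library.

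The G1 class was balanced, with 3 genes on each side of 0 and a median log2 fold change of -0.04. Ccnd3, a D-type cyclin that starts the cycle, stood at 816 ± 61.5 normalized counts with IgG and 756 ± 116 with anti-CD22 (SD, n = 7 each), with a log2 fold change of -0.12. E2f1, an activating E2F factor, stood at 22.1, 81.9 and 176 with IgG and at 75.2, 101 and 164 with anti-CD22. The anti-CD22 values of E2f1 lay inside the IgG range, 6 of 7 of them above the IgG median, with a log2 fold change of 0.53 (limma SE 0.36, adjusted p = 0.546), which was 0.24 without IgG 7 and 0.35 in DESeq2. The E-type cyclins, which drive entry to S phase, were scarce: Ccne1 averaged 19.2 and 14 normalized counts and Ccne2 14 and 19.3 in the IgG and anti-CD22 groups, with log2 fold changes of -0.76 and 0.34. On leaving out 1 library Ccne1 ran from -1.40 to -0.25 and Ccne2 from 0.11 to 0.58. Ccnd1 and Ccnd2 had log2 fold changes of 0.04 and -0.31.

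The 4 mitotic cyclin and kinase genes all had fitted values below 0, with a median log2 fold change of -0.48 (-0.27 in DESeq2). Ccna2, cyclin A of S phase and early mitosis, stood at 16.6, 39.9 and 96.5 normalized counts with IgG and at 0, 20.3 and 81.4 with anti-CD22. The groups overlapped, anti-CD22 5 being at 0 and anti-CD22 6 above all but 2 IgG libraries, and the log2 fold change was -1.55 (SE 0.77, adjusted p = 0.413 by limma). It was -0.90 without anti-CD22 5 and -0.63 in DESeq2. Ccnb2 and Ccnb1, the B-type cyclins, had log2 fold changes of -0.51 (SE 0.33) and -0.46 (SE 0.48), the latter running from -0.74 to -0.20 on leaving out 1 library. Cdk1, their kinase, was the most abundant gene of the mitotic class by normalized counts, at 78.7, 133 and 233 with IgG and 102, 132 and 179 with anti-CD22. The medians of Cdk1 were almost equal, and its log2 fold change was -0.12 (95% interval -0.62 to 0.38, adjusted p = 0.864 by limma). It was -0.0034 without IgG 4, -6.35e-05 without IgG 6 and -0.26 without IgG 7.

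The 8 genes of mitotic control had 7 fitted values below 0 and 1 above, with a median log2 fold change of -0.47 (-0.32 in DESeq2). Bub1, a kinase of the spindle checkpoint, stood at 16.6, 54.6 and 117 normalized counts with IgG and at 0, 22.7 and 77.6 with anti-CD22. Anti-CD22 7 held the highest anti-CD22 value of Bub1 and the other 6 lay below the IgG median, and the log2 fold change was -1.68 (SE 0.74, adjusted p = 0.364 by limma). It was -1.02 without anti-CD22 1, the library at 0, and -1.10 in DESeq2. Its partner in the checkpoint, Bub1b, lay the other way, at 62.2 ± 25.6 and 82.3 ± 31.0 normalized counts (SD, n = 7 each) and a log2 fold change of 0.37 (SE 0.34), or 0.21 to 0.62 on leaving out 1 library. Cdc20, the activator of the anaphase-promoting complex, stood at 59.1, 129.8 and 219.6 with IgG and at 24.7, 71.5 and 175 with anti-CD22, which fitted as a log2 fold change of -0.77 (limma SE 0.38, adjusted p = 0.400) and -0.51 without anti-CD22 4. Aurkb, the kinase of the chromosomal passenger complex, had one of -0.62 (SE 0.39), and -0.36 without anti-CD22 5. The others were Aurka at -0.39, Ube2c at -0.56, Birc5 at -0.10 and Plk1 at -0.02.

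Spindle and chromosome genes were the scarcest and the most scattered. Of the 8 tested, 6 had fitted values below 0 and 2 above, with a median log2 fold change of -0.58 (-0.14 in DESeq2). Kif11, a motor that separates the spindle poles, stood at 0, 51.5 and 73.4 normalized counts with IgG and at 0, 1.86 and 45.2 with anti-CD22. IgG 1 and anti-CD22 libraries 2, 3 and 7 were at 0, all 7 anti-CD22 libraries were below the median of IgG, and the log2 fold change was -2.23 (SE 1.10, adjusted p = 0.406 by limma) and -1.31 in DESeq2. Nusap1, a spindle-bundling protein, stood at 8.28, 39.9 and 81.9 with IgG and at 0, 12.3 and 43.9 with anti-CD22, for a fitted log2 fold change of -1.54 (SE 0.75), which was -0.93 without anti-CD22 3 and -0.92 in DESeq2. Kif23, a motor of cytokinesis, lay the other way at 1.062 (SE 0.99), and at 0.59 without IgG 3 or IgG 7. Tpx2, which nucleates spindle microtubules, lay at -0.55 (SE 0.55), and at 0.0094 without anti-CD22 7. Prc1, Kif20a and Cenpf had log2 fold changes of -0.67, -0.46 and 0.24. Prc1 and Kif20a were at -0.11 and -0.17 in DESeq2, and Kif20a had nearly equal group means of 51.2 and 51.1 normalized counts, with 4 of 7 anti-CD22 libraries above the median of IgG.

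The usual markers of proliferation had overlapping ranges in the 2 groups. Top2a, the topoisomerase that untangles replicated DNA, ran from 1.38 to 110.4 normalized counts with IgG (median 80.6) and from 0 to 107 with anti-CD22 (median 57.5), with a log2 fold change of -0.62 (limma SE 0.96, adjusted p = 0.820). Without anti-CD22 3, the library at 0, the log2 fold change of Top2a was 0.17, and in DESeq2 it was -0.08. Mki67, which coats mitotic chromosomes, was at 0 in 4 IgG and 2 anti-CD22 libraries and reached 25.7 with IgG and 24.2 with anti-CD22. Cenpe, a kinetochore motor, was at 0 in 3 IgG and 2 anti-CD22 libraries, and reached 12.4 with IgG and 47.7 with anti-CD22. The plot of single genes shows these values beside those of the helicase genes.

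**Figure D3:**
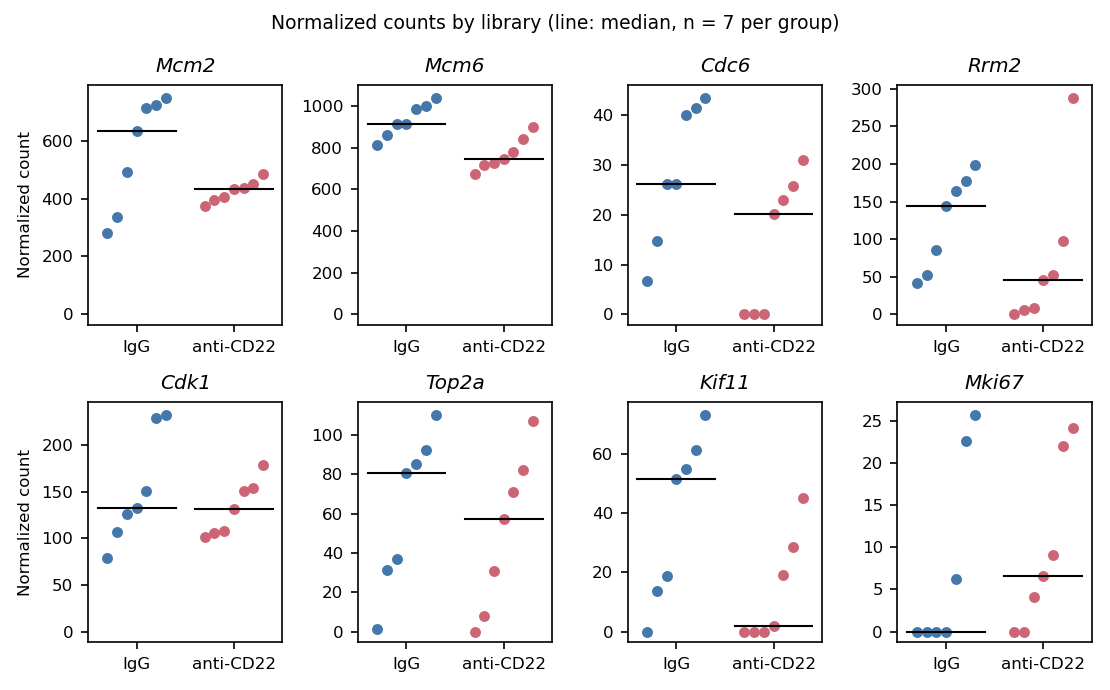
Normalized counts of 8 members in each library (points, spread sideways in order of value) of the IgG and anti-CD22 groups, with a line at the group median (n = 7 each). The groups of every gene overlap, Mcm2 has a narrow anti-CD22 group inside a wide IgG range, and Kif11, Top2a, Cdc6, Rrm2 and Mki67 have libraries at or near 0.

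The growth-associated genes had log2 fold changes of -0.28 (Stmn1) and -0.13 (Hmgb2). Stmn1 stood at 709.6, 989.8 and 1240.2 normalized counts with IgG and at 677, 778 and 1053 with anti-CD22, and 6 of 7 anti-CD22 libraries were below the median of IgG (SE 0.13, adjusted p = 0.374 by limma). Hmgb2 averaged 1179 ± 169.8 and 1083 ± 195 normalized counts (SD, n = 7 each), with overlapping ranges.

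Which libraries carried the low and high values differed by class. Each gene's log2 values were centred on its mean over the 14 libraries and averaged over the tested genes of a class. The licensing average was 0.16 ± 0.21 with IgG and -0.16 ± 0.25 with anti-CD22 (SD, n = 7 each), and 6 of 7 anti-CD22 libraries were below the median of IgG. This difference of -0.31 is larger than the median of single genes because it includes Cdc6. The lowest licensing averages, -0.36, -0.39 and -0.49, were in anti-CD22 5, 6 and 7, where Cdc6 was at 0. The summed licensing counts of these libraries were 6306, 6397 and 5736, that of anti-CD22 6 being the highest of its group. Summed licensing counts were 6706 ± 832 with IgG and 6116 ± 268 with anti-CD22, and the highest library held 1.41 times the lowest. The synthesis average was 0.25 ± 0.30 with IgG and -0.25 ± 0.65 with anti-CD22 (SD, n = 7 each), and was lowest, at -1.14, in anti-CD22 4, where Rrm2 was at 0. This difference of -0.49 is larger than the median of single genes, -0.12, because it includes Rrm2, at -2.18. Summed synthesis counts were 2821 ± 249 with IgG and 2789 ± 261 with anti-CD22, and the highest library held 1.33 times the lowest.

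The mitotic average differed more between libraries of 1 group than between the groups. It ran from -0.78 (IgG 7) to 1.19 (IgG 6) with IgG, a mean of 0.28 ± 0.59, and from -1.08 (anti-CD22 3) to 0.94 (anti-CD22 6) with anti-CD22, a mean of -0.28 ± 0.73 (SD, n = 7 each). The other low anti-CD22 libraries were 5, 2 and 7, at -1.03, -0.58 and -0.47. Summed mitotic counts were 1286 ± 384 with IgG and 1038 ± 375 with anti-CD22, and the highest library held 2.90 times the lowest. IgG 6 and anti-CD22 6 together held the highest value of 13 of the 22 mitotic genes (6 and 7 genes), whereas licensing genes had their highest values mostly in IgG 3 and IgG 6, with 3 each. The share of all genes with their highest value in these libraries was not determined.

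**Figure D4:**
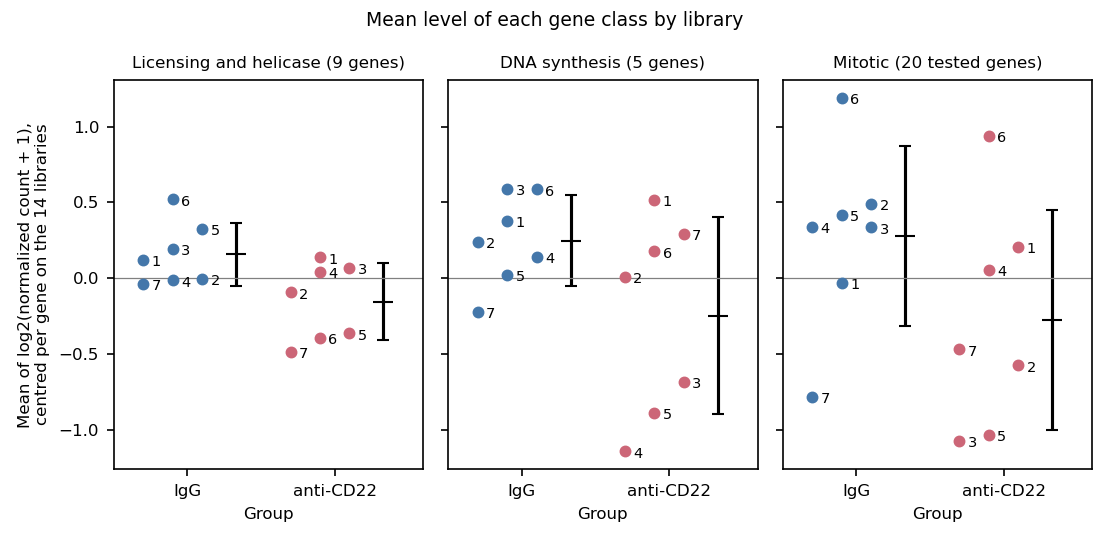
Average centred log2 level of the licensing, synthesis and mitotic members in each library, with points labelled by replicate number and bars for the group mean and SD. Library 6 is high for mitotic genes in both groups, IgG 7 and anti-CD22 libraries 3 and 5 are low, and the licensing averages span a narrower range.

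Markers of other cells in the libraries at the extremes of the mitotic average were as follows. Neutrophil markers summed to 1439 in IgG 6 and 7.33 in anti-CD22 6, the libraries with the most mitotic signal, and to 15240 in IgG 7, 4058 in anti-CD22 3 and 0 in anti-CD22 5, those with the least. Border macrophage markers summed to 90.7 and 428 in the first pair and to 1109, 1685 and 243 in the others. The highest neutrophil sum, 55974, was in IgG 1, where the mitotic average was -0.03. The highest border macrophage sum, 2308, was in anti-CD22 2, where that average was -0.58. The part of these cells in the member values was not tested.

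Leaving out single libraries moved the class medians. The mitotic median of -0.53 was -0.35 without anti-CD22 3 and lay between -0.73 and -0.35 over all 14 omissions. It was -0.28 without anti-CD22 libraries 1, 2 and 3, those with the steepest trend with transcript length, and -0.22 in DESeq2. The licensing median was -0.26 without IgG 2, and the synthesis median -0.05 without IgG 2 and -0.08 without anti-CD22 5.

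The spread within groups was set beside that of all genes of the same level. Among genes with means of 10 to 100 normalized counts, the 18 mitotic members had a median coefficient of variation of 68.6% (39.4% to 102%), beside 53.3% for the 2218 tested genes of that range, whose median level was 34.7 where that of the mitotic members was 48.7. A library at 0 occurred in 33.3% of these mitotic genes and in 30.1% of all genes of that range. From 100 to 1000 normalized counts, the 6 licensing genes had a median of 19.0%, beside 19.6% for all genes, while the mitotic Cdk1 and Cdc20 had 30.6% and 50.2%. Mcm3, above 1000, had 10.8%, beside 10.3%. Fitted log2 fold changes had a median SE of 0.56 for mitotic and 0.16 for licensing genes.

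**Figure D5:**
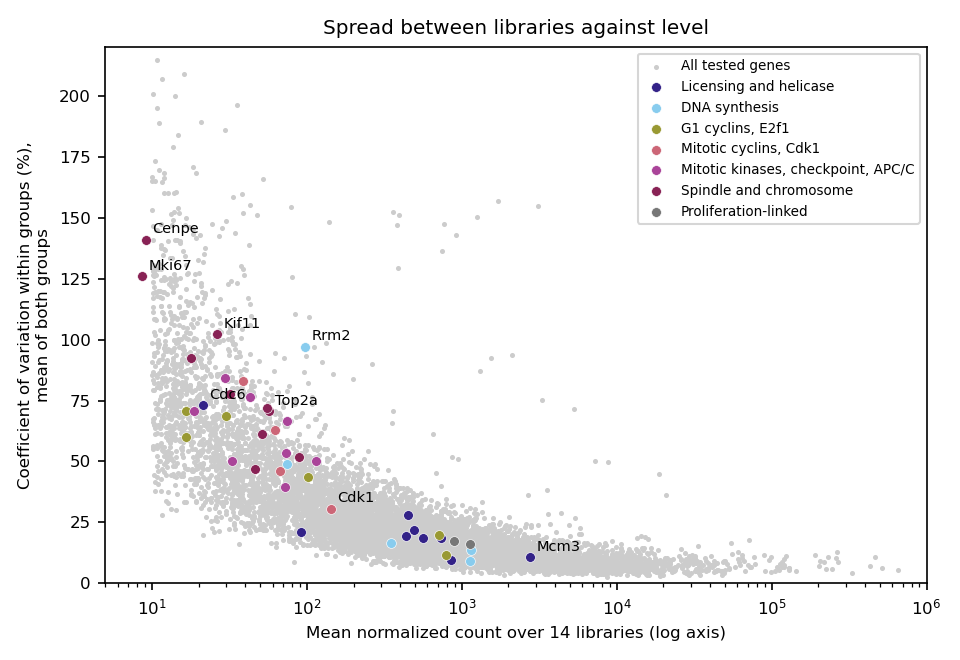
Coefficient of variation within groups (percent) against mean normalized counts (log axis) for all tested genes (grey) and the members (coloured by class, the growth-associated genes being named proliferation-linked in the key). Licensing genes follow the bulk of genes of their level, and the 18 mitotic members at 10 to 100 normalized counts lie mostly in its upper part, with a median of 68.6%.

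Other genes of the same pathways were compared from lists of 109 genes that are not members. Of the 98 tested, 41 had fitted values above 0 and 57 below, the median log2 fold change was -0.05, and 0 passed an adjusted p under 0.05 by limma, edgeR or DESeq2. At an unadjusted p under 0.05 by limma 1 was higher (1.02%, where 6.8% of all genes were) and 3 were lower (3.06%, where 5.95% of all genes were). The other 32 mitotic genes had 14 values above 0 and 18 below with a median of -0.05, and the other 17 licensing genes had 10 above and 7 below with a median of 0.09. The mitotic members themselves had 3 above and 17 below with a median of -0.53, and the licensing members 2 above and 7 below with a median of -0.13. Whether members and further genes differed was not tested.

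In the retinoblastoma and E2F list, 7 of 15 genes were above and 8 below 0, with a median of -0.01. Rb1, the retinoblastoma repressor of S phase genes, stood at 873, 1170.0 and 1625 normalized counts with IgG and at 1247, 1345 and 1635 with anti-CD22. All 7 anti-CD22 libraries were above the median of IgG, and the log2 fold change was 0.30 (SE 0.11, adjusted p = 0.308 by limma). Lin37, a subunit of the complex that represses cell cycle genes in resting cells, averaged 556 ± 43.8 and 465 ± 54.9 (SD, n = 7 each), with a log2 fold change of -0.26 (limma SE 0.10, adjusted p = 0.325). All 6 tested inhibitors of cyclin-dependent kinases had values below 0, with a median of -0.14, among them Cdkn1c at -0.25, and Cdkn2a, at a mean of 3.05 normalized counts, was not tested. In the other lists the smallest p went to Orc5 (0.18), a subunit of the origin recognition complex, Gins4 (-0.20), a helicase cofactor, Pola1 (0.43) and Pold3 (-0.21), polymerase subunits, Cdca2 (0.77), Cenpa (-0.41), the centromeric histone, Cdk6 (0.14) and Cdc25a (-0.30), given as log2 fold changes.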

How the data were processed

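Per the labels and the submitters' processing notes, libraries were made with a full-length, unstranded cDNA kit (SmartSeq v4 with Nextera XT), sequenced as paired 100-base reads, demultiplexed with bcl2fastq, aligned to mm10 with STAR, counted with SummarizedExperiment and analysed with DESeq2. Versions, the annotation and the handling of reads shared by overlapping genes or pseudogenes were not given in the sources used here. What the authors deposited are normalized counts, a signal in which each library's counts are divided by 1 size factor. Of 24421 entries, 27 with names turned into dates (at most 0.1488% of a library) were left out, and 0 columns lacked a sample. Groups and replicate numbers came from the titles.

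Genes with a mean of at least 10 were tested with limma (two-sided, mean-variance trend) on log2(normalized count + 1), so fold changes are on that scale, depend on the pseudocount of 1 in scarce genes, weigh libraries near 0 heavily and can differ either way from the ratio of group means. P-values were adjusted over all 11646 genes tested, with a threshold of 0.05. Values were whole multiples of 1 step per library within a tolerance of 0.1 reads, which gave whole reads for 13 libraries and edgeR and DESeq2 fits as alternatives. Anti-CD22 3, whose step of 1.01 is close to 1, stayed out of those fits. Transcript lengths, GC content and gene coordinates came from GENCODE vM21 (GRCm38), and promoters from RefSeq (GRCm38.p6). Counting intervals cover counting error only.

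The members and lists were chosen with earlier results of these data known. Full values go to up to 4 tested members per class with the smallest p, and to Mki67, Top2a, Cdk1, Mcm2 and Pcna. Each further pathway list gives up to 1 gene per direction. Alternatives were other pseudocounts, filters, scalings, variance models, count models, a replicate block, removal of the length and GC trend with splines of 4 degrees of freedom, and leaving out each library. Leaving out the 3 libraries with the steepest length trend was chosen after seeing the data. The limma step was tested on simulated data. Tools were R 4.3.3, limma 3.58.1, edgeR 4.0.16, DESeq2 1.42.0, Python 3.11.15, pandas 2.3.3 and matplotlib 3.10.9.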

Additional observations from a re-analysis of the deposited data

Results flagged for a closer look

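In 94 sets of 7 values (each member and class summary in each group), the highest or lowest library was compared with its nearest neighbour, on the log2(normalized count + 1) scale, as the share of the set's range that lies between them. A share above Dixon's critical value at the 95% level marks a library as standing apart, and chance alone marks about 1 in 20 sets. The values of 7 sets passed. In the IgG group they were Mcm3 in IgG 3, the highest, at 0.599, Ccne1 in IgG 1, the lowest, at 0.681, Top2a in IgG 7, the lowest, at 0.68, and Kif11 in IgG 1, the lowest, at 0.625. In the anti-CD22 group they were Cdt1 in anti-CD22 2, the lowest, at 0.632, Kif23 in anti-CD22 5, the lowest, at 0.57, and Tpx2 in anti-CD22 7, the lowest, at 0.657. Except for Mcm3 all of these libraries were low, and Ccne1, Kif11 and Kif23 were at 0 there, so that their shares depend on the pseudocount.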

How the results depend on the processing

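Each result was recomputed under 27 alternatives. No member passed an adjusted p of 0.05 under any of them, and the medians of the licensing, synthesis and mitotic classes stayed below 0 under all of them. Leave-one-out ranges of the medians were -0.26 to -0.11, -0.18 to -0.05 and -0.73 to -0.35. The count of all genes past the threshold, 1 as reported, was 0 without the variance trend, 0 with the length and GC trend removed, 0 in edgeR, 35 in DESeq2, 0 without anti-CD22 libraries 1, 2 and 3, and 0 to 43 on leaving out 1 library, the 43 without anti-CD22 7. Of 747 values of the 28 named members tested, 13 changed sign and 22 members never did. Rrm1 was -0.0154 with the length and GC trend removed, with or without the replicate block. Pcna was 0.0022 on rescaling to the same total, 0.0454 with the length and GC trend removed, with or without the block, and -0.0447 to 0.0386 on leaving out 1 library. Without anti-CD22 libraries 1, 2 and 3, Ccnd3 was 0.0440 and Ccne2 -0.29. On leaving out 1 library, Tpx2 ran from -0.78 to 0.0094 (the latter without anti-CD22 7) and Top2a from -1.31 to 0.17. The cause was not tested. The lowest adjusted p of a named member under any alternative was 0.0586 (Mcm6, DESeq2). With the replicate number as a block, 2 genes of all passed, 0 members did, and the mitotic median was -0.53. The numbers share no stated source, correlations of same-numbered libraries ran from -0.145 to 0.160, and 2 of 7 libraries matched their own number best. Mitotic genes had a median SE of 0.56, and what part of it low counts make was not tested.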
